A study of Rattus norvegicus with 6 samples.

Results

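The genes described here are the mitochondrial carriers and the proteins of the mitochondrial ribosome, measured in the contralateral prelimbic cortex (PL) of rats with spared nerve injury (SNI). A gene was a member when its symbol in the platform annotation started with Slc25a, or with Mrpl or Mrps followed by a digit, and when that symbol was the only one of its probe set. A probe set is a group of short probes along one transcript. The rule used no measured value and found 113 of 14217 genes, read by 155 probe sets. They comprised 40 Slc25a carriers, 46 Mrpl genes of the large ribosome subunit and 27 Mrps genes of the small subunit. The value of a gene was the mean of its probe sets, and 30 members had more than 1.

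The carriers sit mostly in the inner mitochondrial membrane and exchange ATP, phosphate, amino acids and metabolic intermediates between the matrix and the cytosol. The mitochondrial ribosome works inside the matrix and makes only the few respiratory chain subunits that mitochondrial DNA encodes. All of its proteins are encoded in the nucleus, made in the cytosol and imported, and in neurons both groups serve the supply of ATP for synaptic transmission.

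The SNI group held 3 samples from male Sprague Dawley rats 14 days after transection of the left tibial and common peroneal nerves, with the sural nerve left intact. The control group held 3 samples from male Sprague Dawley rats, also from day 14. The methods describe a sham group in which the nerves were only exposed, but the labels name these 3 samples only as control. Total RNA was read on Affymetrix rat genome arrays of 1 colour. The sources used here do not say that each sample came from a separate rat, and p-values then cover only the spread among these samples, part of which may be technical.

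Each deposited value is a log2 signal relative to the median of that probe set over the 6 samples, so differences can be read and levels cannot. Where the groups of a gene with 1 probe set did not overlap, 1 group was therefore above 0 and the other below it. Of all members, 71.7% had a larger SD in the control group than in the SNI group, close to the 70.6% of all genes. The SNI samples and control sample 2 lay between −11.3 and −6.18 on principal component 1 (35.8% of the variance), apart from control samples 1 and 3 at 21.9 and 16.04. The mean of the 18 hybridization control probe sets was 0.19, 0.054 and 0.097 in SNI samples 1, 2 and 3, against −0.047, −0.20 and −0.22 in control samples 1, 2 and 3. These spiked controls, which hold no rat RNA, thus did not overlap between the groups, and their part in the results below was not tested except by using them as a covariate.

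Most genes of the mitochondrial ribosome had lower values in the SNI group, in both subunits, and none of them passed the adjusted test. The log2 difference, SNI minus control, lay below 0 for 42 of 46 genes of the large subunit and for 23 of 27 genes of the small subunit. The carriers were divided, with 25 of 40 genes below 0 and 15 above. Over all genes, 7785 of 14217 lay below 0. The median difference was −0.039 for the carriers, −0.084 for the large subunit and −0.069 for the small subunit, beside −0.011 for all genes.

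No member and no gene of the array passed an adjusted p of 0.05 in limma (0% of all genes), and the smallest adjusted p of a member was 0.143. Counts below are therefore at an unadjusted p under 0.05, at which 563 genes were higher in the SNI group (3.96% of all genes) and 1307 were lower (9.19%). At this threshold 2 carriers were higher and 8 lower. In the large subunit 13 genes were lower and none was higher, and in the small subunit 6 were lower and none was higher. The 27 members that were lower thus made up a larger share of the 113 than the 9.19% of all genes. The 2 that were higher made up a smaller share of the 113 than the 3.96%, but both were carriers. Among the 40 carriers alone, the share that was higher was slightly above 3.96%. Groups without overlap and higher in the SNI group were found for 6.39% of all genes, and groups without overlap and lower for 13.7%. Among the carriers 3 were of the first kind and 11 of the second, in the large subunit 1 and 21, and in the small subunit 0 and 7. The unpaired test of the methods also passed no gene after adjustment. At an unadjusted p under 0.05 it called 8 carriers, 15 large subunit and 6 small subunit genes. Of these, only 7 carriers, 7 large subunit and 5 small subunit genes were also called in limma. Among the 15 large subunit genes 14 were lower and 1, Mrpl45, was higher. Over all genes, this test called 522 higher and 1265 lower.

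The limma counts moved when samples were left out, which also leaves fewer samples to estimate the spread. Without control samples 1 and 3, 1 control sample is left, the spread comes from the SNI samples alone and the lone control is assumed to vary like them. Differences then lay below 0 for 26 of 40 carriers, 36 of 46 large subunit and 20 of 27 small subunit genes, beside 8564 of 14217 genes. The medians were −0.035 for carriers, −0.057 for the large and −0.046 for the small subunit, beside −0.031 for all genes. Carrier counts were 5 without SNI sample 1 and 6 without SNI sample 3. The large subunit count was 8 without SNI sample 3. The small subunit count was 1 without SNI sample 3. It was 3 when SNI sample 2, control 1 or control 3 was the one left out. Over all genes, 368 were higher and 809 lower without SNI sample 1, and 335 and 811 without SNI sample 3. These numbers were 389 and 902 without SNI sample 2, 621 and 1066 without control 1, and 474 and 989 without control 3. When the hybridization controls entered as a covariate, 1 carrier, 5 large subunit and 2 small subunit genes had an unadjusted p under 0.05. Over all 14217 genes, 576 were then higher and 628 lower. None of the 10 carriers called before was called with the covariate, the 1 carrier being Slc25a13, which was higher. All 5 large and both small subunit genes had been called before. The covariate did not overlap between the groups, so covariate and group can hardly be told apart and a lost call decides nothing. The medians with it were −0.030 for carriers, −0.081 for the large and −0.072 for the small subunit, beside −0.0062 for all genes.

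Related groups of genes showed where the members stood among transporters, ribosomes and mitochondria. Of the 255 other Slc genes, which carry solutes across other membranes, 130 lay below 0, with 10 higher and 16 lower and a median of −0.0045. The proteins of the cytosolic ribosome (48 Rpl and Rps genes) went the other way from the mitochondrial ribosome: 41 lay above 0, 12 were higher and 1 lower, and the median was 0.094. The 99 subunits of the respiratory chain and ATP synthase had 84 genes below 0, none higher and 19 lower, and a median of −0.062. The differences between these groups of genes were not tested.

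**Figure D1:**
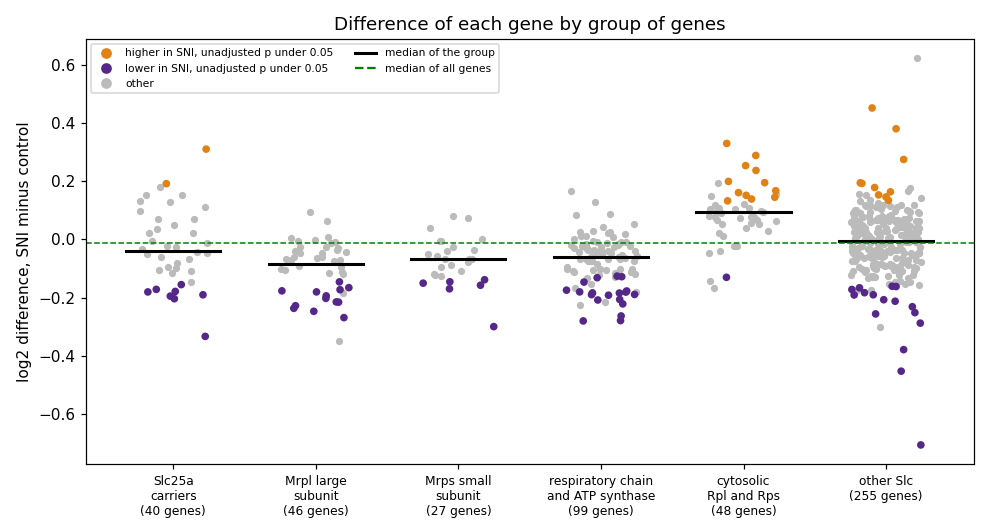
Each point is the log2 difference, SNI minus control, of 1 gene, and the black bars are the medians of the groups of genes. Genes at an unadjusted p under 0.05 are orange when higher and purple when lower in the SNI group. The dashed line marks the median of all genes at −0.011. The large and small subunits hold no orange point, whereas the carriers hold 2 and the cytosolic ribosomal proteins 12.

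Averaged over the genes, the large subunit stood at −0.052, −0.041 and −0.032 in SNI samples 1, 2 and 3, against 0.084, 0.021 and 0.074 in control samples 1, 2 and 3. The small subunit stood at −0.053, −0.037 and −0.014 in the SNI samples, against 0.067, 0.0075 and 0.047 in the control samples. In both subunits the groups did not overlap, and control sample 2 was the control nearest to the SNI group. Control sample 2 was the lowest of the 3 controls for 42 of the 73 ribosomal proteins (57.5%) and for 34% of all genes. The carriers stood at −0.020, −0.013 and −0.0025 in the SNI samples, against 0.020, 0.019 and 0.0011 in the control samples. These are averages over genes on both sides of 0, and the groups did not overlap either. The means of all genes also did not overlap. They were −0.0083, −0.0091 and −0.0032 in the SNI samples, against 0.00075, 0.018 and 0.011 in the control samples.

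Markers of cell types moved as well, and their part in the differences was not tested. In bulk tissue, fewer cells of a type and less RNA per cell cannot be told apart. Of 14 microglia markers, 13 lay above 0 and 8 were higher at an unadjusted p under 0.05, and their mean was 0.14, 0.055 and 0.077 in the SNI samples, against −0.11, −0.066 and −0.14 in the control samples. Of 15 neuronal markers, 12 lay below 0, with 2 higher (Camk2a and Map2) and 2 lower (Syt1 and Snap25), and their mean was −0.10, 0.0024 and −0.036 in the SNI samples, against 0.069, −0.049 and 0.11 in the control samples. The microglia means did not overlap between the groups and the neuronal means did. Of 11 markers of myelinating oligodendrocytes, 10 lay below 0, and their mean was −0.14, 0.018 and −0.045 in the SNI samples, against 0.13, −0.17 and 0.30 in the control samples. Control samples 1 and 3 were thus the highest of the 6 for these markers, with control sample 2 the lowest. Of 11 astrocyte markers 10 lay above 0 and 1 was higher, and of 7 markers of oligodendrocyte precursors 6 lay above 0 and 3 were higher. Of 5 blood cell markers, 4 lay above 0 and 2 were higher, Hbb by 0.49 and Alas2 by 0.44, both genes of red blood cells. Their mean was 0.041, 0.24 and 0.15 in the SNI samples, against −0.21, −0.029 and −0.030 in the control samples, without overlap. Of 10 endothelial markers 7 lay above 0 and of 8 pericyte and smooth muscle markers also 7, with 1 higher in each list. The 1 in the pericyte and smooth muscle list, Cspg4, was also counted among the markers of oligodendrocyte precursors. None of the choroid plexus or meninges and fibroblast markers was called. Since levels cannot be read, the presence of these cell types in the samples could not be checked beyond the differences.

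**Figure D2:**
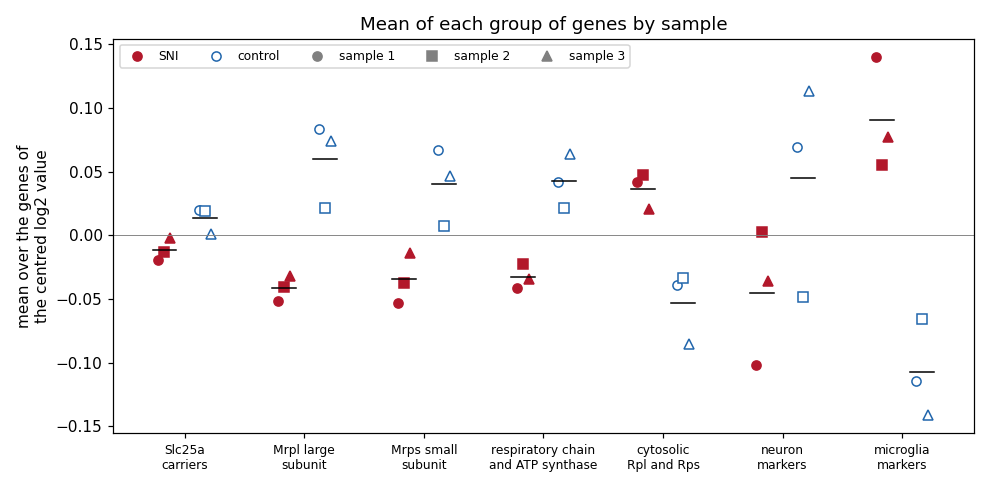
Each symbol is the mean of the centred log2 values over the genes of a group in 1 sample, filled for SNI and open for control, with a bar at the mean of the 3 samples. The carriers, the large and small subunits and the respiratory chain lie below 0 in every SNI sample and above 0 in every control sample. Cytosolic ribosomal proteins and microglia markers lie the opposite way, and neuron markers overlap.

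Among the carriers of ATP and phosphate, 3 were lower at an unadjusted p under 0.05. Slc25a4, an ADP/ATP translocase of the inner membrane, stood at −0.14, −0.075 and −0.079 in the SNI samples, against 0.099, 0.075 and 0.14 in the control samples. Slc25a5, a second ADP/ATP translocase, stood at −0.16, −0.028 and −0.090 in the SNI samples, against 0.074, 0.028 and 0.16 in the control samples. Slc25a3, which brings in the phosphate that ATP synthase uses, stood at −0.16, −0.057 and −0.055 in the SNI samples, against 0.055, 0.057 and 0.13 in the control samples. In all 3 genes every SNI sample was below every control sample, with SNI sample 1 lowest and control sample 3 highest. Their differences were −0.20 ± 0.053 for Slc25a4, −0.18 ± 0.062 for Slc25a5 and −0.17 ± 0.057 for Slc25a3 (log2, SE, n = 3 each), with adjusted p = 0.216, 0.292 and 0.281 in limma. On the linear scale the difference of Slc25a4 was −13.2%, with a 95% interval from −20.2% to −5.53%.

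These 3 were the only ones called at an unadjusted p under 0.05 among the 13 measured carriers of adenine nucleotides, phosphate and related cofactors, of which 8 lay below 0 (median −0.081). Slc25a31, an ADP/ATP translocase known from testis, differed by 0.071. The ATP-magnesium/phosphate carriers differed by 0.13 for Slc25a25, 0.15 for Slc25a41, −0.10 for Slc25a24 and 0.070 for Slc25a23, each with overlapping groups. Slc25a42, a carrier of coenzyme A, differed by 0.15 without overlap, at an unadjusted p of 0.0525.

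The lowest difference among the carriers was that of an amino acid carrier. Slc25a12, the calcium-activated aspartate-glutamate carrier that predominates in brain and feeds the malate-aspartate shuttle, stood at −0.25, −0.14 and −0.16 in the SNI samples, against 0.17, 0.14 and 0.14 in the control samples. The 3 control samples lay close together, and every SNI sample was clearly below them. The difference was −0.33 ± 0.055, with a 95% interval from −0.46 to −0.21 and adjusted p = 0.143 in limma, or −20.6% on the linear scale. Slc25a11, the oxoglutarate-malate carrier and the other membrane carrier of the same shuttle, stood at −0.085, −0.12 and −0.067 in the SNI samples, against 0.067, 0.11 and 0.092 in the control samples. Its groups did not overlap either, and its difference was −0.18 ± 0.051 (adjusted p = 0.230).

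Slc25a13, the aspartate-glutamate carrier best known from liver, had a positive difference of 0.18 ± 0.083 with overlapping groups (adjusted p = 0.414). The glutamate carriers were not called and lay on both sides of 0, with −0.062 for Slc25a22 and 0.097 for Slc25a18, which is known from astrocytes. Slc25a22 had no overlap and very tight groups, between −0.042 and −0.022 in the SNI samples and between 0.022 and 0.034 in the control samples. Of the 8 amino acid carriers measured, 4 lay below 0 and Slc25a12 alone was called at an unadjusted p under 0.05. Among 5 carriers of di- and tricarboxylates and acyl groups, Slc25a11 alone was called. The citrate carrier Slc25a1 differed by 0.048 and the carnitine-acylcarnitine carrier Slc25a20 by −0.15, both with overlapping groups.

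The 2 carriers that were higher in the SNI group at an unadjusted p under 0.05 do not belong to these transport classes. Slc25a34, a member of the family whose substrate is not settled, stood at 0.26, 0.20 and 0.11 in the SNI samples, against −0.11, −0.13 and −0.13 in the control samples. All 3 control samples lay within a narrow band below every SNI sample, and the difference was 0.31 ± 0.058 (95% interval 0.18 to 0.44, adjusted p = 0.164), or 24% on the linear scale. Slc25a28, mitoferrin 2, which imports iron, stood at 0.14, 0.050 and 0.025 in the SNI samples, against −0.025, −0.16 and −0.17 in the control samples. Here SNI sample 3 and control sample 1 lay nearly together although the groups did not overlap, and the difference was 0.19 ± 0.064 (adjusted p = 0.281). Its paralog Slc25a37, mitoferrin 1, differed by 0.037 with overlapping groups.

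Of the remaining carriers, 3 were lower at an unadjusted p under 0.05. Slc25a46, an outer membrane protein that acts in mitochondrial dynamics, averaged −0.026 ± 0.025 in SNI samples and 0.16 ± 0.14 in control samples (SD, n = 3 each). Its control sample 2 at 0.016 stood next to SNI sample 2 at 0.0003. Of its 2 probe sets, 1 differed by −0.30 with overlapping groups (unadjusted p = 0.0371 in limma). The other differed by −0.077 without overlap (unadjusted p = 0.224 in limma). Slc25a51l1 had a difference of −0.19 (adjusted p = 0.317) and Slc25a45 of −0.16 (adjusted p = 0.360), both without overlap. The 3 members of the uncoupling protein type lay below 0 and none was called, with −0.051 for Slc25a27, −0.094 for Slc25a14 and −0.11 for Slc25a30. The uncoupling proteins Ucp1, Ucp2 and Ucp3, whose symbols fell outside the member rule, differed by 0.022, −0.023 and 0.0057, each with overlapping groups. The 30 carriers that were not called lay between −0.15 and 0.18, 17 of them below 0.

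**Figure D3:**
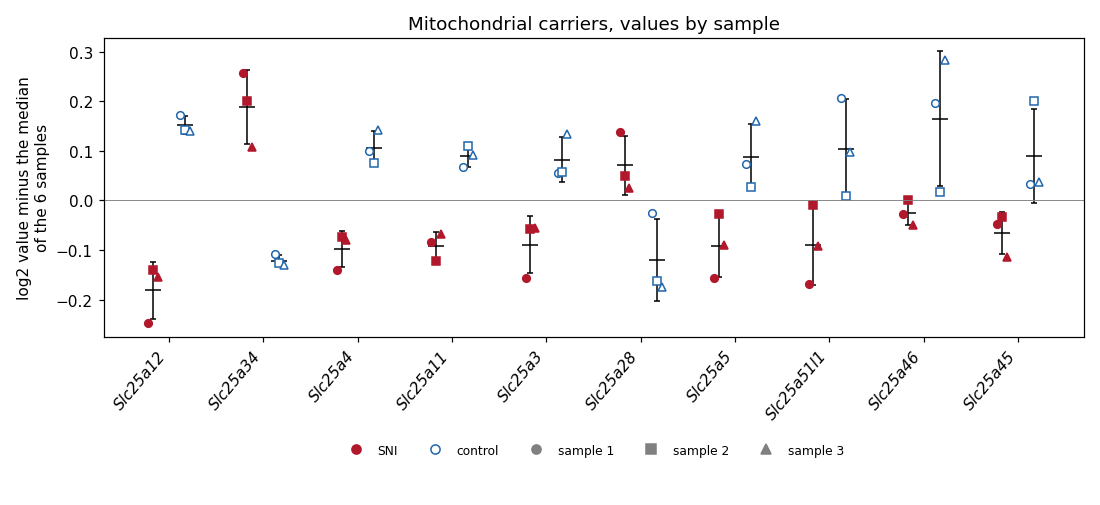
Values of the 10 carriers with an unadjusted p under 0.05 and no overlap, as log2 relative to the median of the 6 samples, in order of p. Filled red symbols are SNI samples and open blue symbols control samples, with bars at the mean and 1 SD. Slc25a34 and Slc25a28 have the SNI samples above the control samples, and the other 8 carriers have them below.

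In the large subunit the genes that were lower included several with bacterial relatives. Mrpl21 stood at −0.099, −0.068 and −0.13 in the SNI samples, against 0.23, 0.068 and 0.12 in the control samples. Mrpl19 stood at −0.089, −0.17 and −0.062 in the SNI samples, against 0.17, 0.062 and 0.097 in the control samples. Mrpl44, which carries a ribonuclease III-like fold, stood at −0.093, −0.15 and −0.044 in the SNI samples, against 0.18, 0.044 and 0.29 in the control samples. In each of these 3 genes no SNI sample reached the lowest control, which was control sample 2. The differences were −0.24 ± 0.060 for Mrpl21, −0.22 ± 0.058 for Mrpl19 and −0.27 ± 0.073 for Mrpl44, with adjusted p = 0.216, 0.219 and 0.224 in limma. On the linear scale these were −15.1% for Mrpl21 and −17% for Mrpl44.

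Mrpl32, a protein that is cleaved after import before it joins the ribosome, stood at −0.096, −0.084 and −0.024 in the SNI samples, against 0.27, 0.024 and 0.25 in the control samples. Its control samples 1 and 3 were high while control sample 2 lay close to SNI sample 3, and its difference was −0.25 ± 0.075 (adjusted p = 0.248). Of similar size were Mrpl39, a protein related to threonyl-tRNA synthetase, with −0.23 ± 0.077, Mrpl20 with −0.21 ± 0.063, Mrpl1 with −0.20 ± 0.063 and Mrpl35 with −0.19 ± 0.054. Mrpl47 and Mrpl41 were the last of the 10 smallest p-values without overlap, at −0.18 and −0.17. Also under the unadjusted threshold were Mrpl57 without overlap and Mrpl14 and Mrpl15 with it.

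Some members of the large subunit did not share this direction or did not pass. Mrpl45, an anchor of the ribosome to the inner membrane, had the highest difference of the subunit at 0.096 ± 0.051 (adjusted p = 0.470), with 0.034, 0.029 and 0.033 in the SNI samples, against −0.029, −0.099 and −0.063 in the control samples. Its groups did not overlap. Mrpl50 had the lowest difference at −0.35 ± 0.16 but an unadjusted p of 0.0607, and 2 of its controls were far from the other. It stood at −0.056, −0.027 and −0.032 in the SNI samples, against 0.50, −0.12 and 0.55 in control samples 1, 2 and 3. Without control samples 1 and 3 its difference was 0.079. Of its 2 probe sets, 1 differed by −0.29 without overlap, with control sample 2 at 0.039 (unadjusted p = 0.00944 in limma). The other differed by −0.40 with overlapping groups, with control sample 2 at −0.27 (unadjusted p = 0.137 in limma). Mrpl12, which also binds the mitochondrial RNA polymerase, differed by −0.059 and Mrpl3 by −0.11 (adjusted p = 0.384), and Mrpl3 had no overlap, with SNI samples between −0.054 and −0.050 and control samples between 0.050 and 0.071. The 33 large subunit genes that were not called comprised 29 below 0 and 4 above.

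In the small subunit Mrps35, which has no bacterial relative, had the lowest difference. It stood at −0.099, −0.25 and −0.068 in the SNI samples, against 0.22, 0.068 and 0.19 in the control samples. SNI sample 2 was far below the others and the groups did not overlap. The difference was −0.30 ± 0.071, with a 95% interval from −0.46 to −0.13 and adjusted p = 0.206 in limma, or −18.8% on the linear scale. Mrps14, which has a bacterial relative, stood at −0.11, −0.068 and −0.13 in the SNI samples, against 0.031, 0.046 and 0.13 in the control samples, a difference of −0.17 ± 0.054 (adjusted p = 0.265).

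The other 4 small subunit genes that were called had no overlap and smaller differences. These were −0.16 for Mrps30, −0.15 for Mrps18b, −0.15 for Mrps23 and −0.14 for Mrps27, a pentatricopeptide repeat protein, with adjusted p between 0.332 and 0.377. The 3 probe sets of Mrps27 all lay below 0, but none was itself under 0.05 (unadjusted p = 0.131, 0.0577 and 0.173 in limma). In Mrps18b the nearest samples were almost equal, at −0.0008 in SNI sample 2 and 0.0008 in control sample 2. Mrps30 and Mrps18a keep small subunit names although structures of the mammalian mitochondrial ribosome place them in the large subunit, and Mrps18a differed by −0.087. Mrps12, a protein of the decoding site, differed by −0.12 and Mrps16 by −0.067, both with overlapping groups. The highest difference was that of Mrps26, at 0.080 with overlap.

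**Figure D4:**
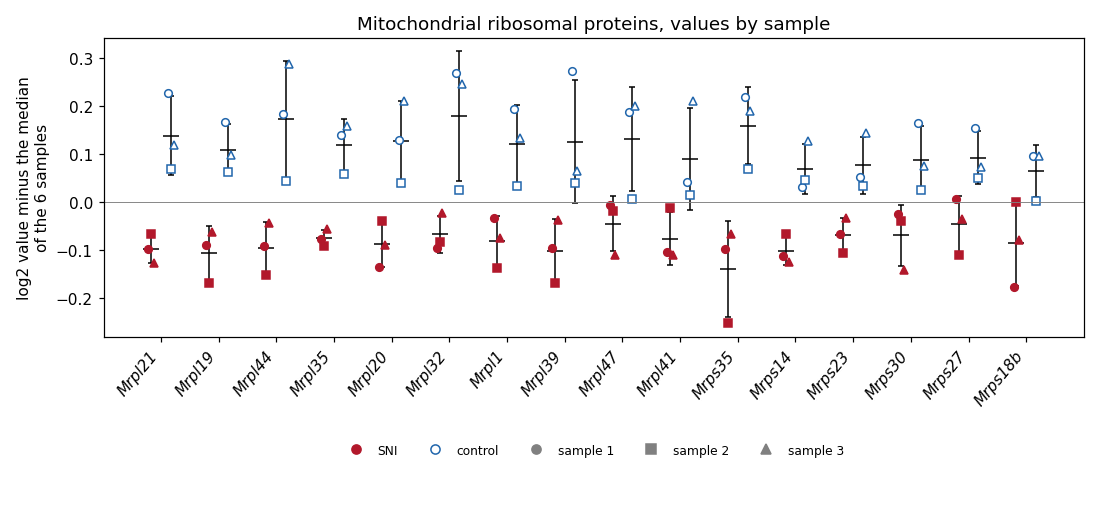
Values of 10 large subunit and 6 small subunit genes with an unadjusted p under 0.05 and no overlap, as log2 relative to the median of the 6 samples, in order of p within each subunit. Filled red symbols are SNI samples and open blue symbols control samples, with bars at the mean and 1 SD. Every SNI sample lies below every control sample of the same gene, and the open square of control sample 2 is the lowest control for most genes.

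Mammalian mitochondrial ribosomal proteins are split between those numbered after bacterial counterparts and those with higher numbers, most of which have none. Among the large subunit genes numbered up to 36, 24 of 25 lay below 0, 8 were lower at an unadjusted p under 0.05 and the median was −0.097. Among those numbered above 36, 18 of 21 lay below 0, 5 were lower and the median was −0.047. In the small subunit 2 of the 15 genes numbered up to 21 were lower and 4 of the 12 above, with medians of −0.069 and −0.072. This division was made after the values were seen and was not tested.

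Promoters were read to describe what the members share beyond their symbols. Nuclear genes for mitochondrial proteins often carry sites for nuclear respiratory factors. Whether such sites had a part in the differences was not tested. The window ran from 250 bases before to 50 bases after each transcription start in the RefSeq annotation of the rat build GRCr8, and a gene was counted if any of its starts had the letters. The letters searched on both strands were CGCATGCG, the core of the NRF1 site, which reads the same on either strand, and CCGGAAG, the core of an ETS site as bound by GABP (nuclear respiratory factor 2). Neither motif contains the other. A window was found for 34 carriers, 38 large subunit and 21 small subunit genes. CGCATGCG was present for 1 carrier (2.9%), 5 large subunit genes (13.2%) and 1 small subunit gene (4.8%), beside 3.1% of the 11733 genes on the array with a window. CCGGAAG was present for 6 carriers (17.6%), 13 large subunit genes (34.2%) and 7 small subunit genes (33.3%), beside 15.4% of genes on the array.

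Within the ribosomal proteins, 14 genes that were lower at an unadjusted p under 0.05 and 45 others had a window. The NRF1 core was present for 3 of the lower genes (21.4%) and 3 of the others (6.7%), the ETS core for 28.6% and 35.6%, and either of them for 42.9% and 42.2%. These shares rest on few genes and were not tested. Sequences are shown for Mrpl32, Mrps18b and Mrps27, so that the letters can be set beside their values. They were the only plotted members with a match in the 120 bases before the first listed start. Other starts were not searched for this stretch. The matching letters are in capitals (5′ to 3′ on the gene's strand, GRCr8, RefSeq). Mrpl32 at chr17:55260531-55260650 on the plus strand and Mrps18b at chr20:2842886-2843005 on the plus strand hold the NRF1 core, and Mrps27 at chr2:32474084-32474203 on the plus strand holds the ETS core on the opposite strand. Mrps18b also has an ETS match outside the stretch shown, in the window of this start or of another. A match is a description of the letters and not a sign of binding.
Mrpl32: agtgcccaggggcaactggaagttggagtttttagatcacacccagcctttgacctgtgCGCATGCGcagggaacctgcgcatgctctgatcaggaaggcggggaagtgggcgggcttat
Mrps18b: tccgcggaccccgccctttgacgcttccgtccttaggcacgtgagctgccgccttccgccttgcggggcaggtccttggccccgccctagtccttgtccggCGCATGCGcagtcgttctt
Mrps27: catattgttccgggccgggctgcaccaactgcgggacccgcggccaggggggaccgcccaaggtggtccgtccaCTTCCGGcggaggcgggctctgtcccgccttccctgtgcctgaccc

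Other genes of the same pathways were read from lists made by function. Over all genes, 13.2% were called in either direction at an unadjusted p under 0.05. Of 6 genes listed as ribosome proteins under other symbols, 5 lay below 0 and none was called in either direction, with a median of −0.057. The 1 above 0 was Oxa1l, the insertase that receives new proteins from the ribosome, at 0.11. Of 26 ribosome assembly genes, 2 were higher and 4 lower, with a median of −0.058. Eral1, a chaperone of the small subunit RNA, stood at 0.17, 0.064 and 0.072 in the SNI samples, against −0.20, −0.064 and −0.10 in the control samples, and differed by 0.22. The pseudouridine synthase family member Trub2 differed by 0.13. The RNA-binding protein Fastkd2 differed by −0.30, the large subunit assembly factors Malsu1 and Gtpbp10 by −0.23 and −0.25, and Mterf3, of the mitochondrial termination factor family, by −0.20.

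Of 12 translation factors, 1 was lower, the release factor family member Mtrf1 at −0.18. The called share of this list, 8.33%, was below the 13.2% of all genes. None of 16 mitochondrial tRNA synthetases was called. Of 17 genes of mitochondrial transcription and biogenesis, 1 was higher and 3 were lower. Tfam, which packs mitochondrial DNA and starts its transcription, stood at −0.12, −0.084 and −0.097 in the SNI samples, against 0.12, 0.10 and 0.084 in the control samples, a difference of −0.21 without overlap. The elongation factor Tefm differed by −0.22 and the coactivator Ppargc1a by −0.17 with overlapping groups, while its paralog Ppargc1b differed by 0.16. The transcription factors Nrf1 and Gabpa differed by −0.0033 and 0.025.

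Of 32 genes of protein import, the machinery that brings proteins made in the cytosol into mitochondria, 26 lay below 0, 6 were lower and none was higher, with a median of −0.073. The 6 were Timm10, Tomm70, Grpel1, Timm17a, Pmpcb and Timm21, between −0.22 and −0.15. Tomm70 is the outer membrane receptor that takes up carriers, and Timm10 is a chaperone of the intermembrane space that guides them to the inner membrane. The 27 mitochondrial transport genes outside the carrier symbols had a median of 0.0019, and 14 of them lay above 0. Their called share, 14.8%, was near the 13.2% of all genes. Among them 1 was higher (Sfxn5, 0.20) and 3 were lower. These were the outer membrane channel Vdac2 at −0.19, the pyruvate carrier subunit Mpc2 at −0.14 and the serine transporter Sfxn1 at −0.17. All adjusted p-values of the genes named from these lists lay above 0.05 in limma.

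The probe sets of a gene did not always go the same way, and among the 30 members with more than 1 probe set 11 had values on both sides of 0. Slc25a27, an uncoupling protein of neurons, had differences of 0.21, −0.19 and −0.17 in its 3 probe sets, of which the second had an unadjusted p of 0.0168 and no overlap. Slc25a23 had 1 probe set at 0.22 (unadjusted p = 0.0486) and others at −0.066 and 0.059. The 2 probe sets of Mrps22 stood at 0.28 (unadjusted p = 0.0226) and −0.13. For these 3 genes the mean of the probe sets therefore stands for none of them singly. Over all 155 member probe sets, 4 were higher and 27 lower at an unadjusted p under 0.05. Of all 31042 probe sets, 4055 were under this threshold in either direction. The smallest adjusted p of a member probe set was 0.0983, for Slc25a12.

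The named members differed in how far they rested on single samples. Slc25a12, Slc25a34, Slc25a4 and Slc25a11 kept an unadjusted p under 0.05 when any 1 sample was left out, as did Mrpl21, Mrpl19, Mrpl44, Mrpl35, Mrpl20, Mrpl32 and Mrps35. Over all 15 alternatives, the difference ranged from −0.35 to −0.29 for Slc25a12, from 0.23 to 0.35 for Slc25a34, from −0.36 to −0.17 for Mrpl21 and from −0.47 to −0.21 for Mrps35. When the hybridization controls entered as a covariate, those 4 carriers were no longer under 0.05, while Mrpl21, Mrpl19 and Mrps35 were. Without control samples 1 and 3, where the spread rests on the SNI samples alone, those 4 carriers were under 0.05, and of the named ribosomal proteins Mrpl21 alone, which with 1 control sample says nothing of how firm the others are.

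Other named members passed only with all samples or with most of them. The carriers Slc25a3 and Slc25a28 were no longer under 0.05 without SNI sample 1 or without control sample 3, and Slc25a5 without SNI sample 1, SNI sample 3 or control sample 3. Over the alternatives, the differences of Slc25a3 ranged from −0.19 to −0.049 and those of Slc25a5 from −0.21 to −0.061. Slc25a51l1, Slc25a46 and Slc25a45 were each lost on leaving out any of at least 4 samples, and so were Mrpl47, Mrps30, Mrps23, Mrps27 and Mrps18b. Mrpl1 and Mrpl39 were lost without SNI sample 2, Mrps14 without SNI sample 3, and Mrpl41 without SNI sample 1, SNI sample 3 or control sample 3.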

How the data were processed

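RNA of the contralateral PL, with 3 SNI and 3 control samples 14 days after surgery, was read on Affymetrix rat genome arrays. The authors applied RMA, log2 transformation and quantile normalization. The deposited log2 values had also been set to a median of 0 per probe set, a step that the sources used here do not describe. Levels and signal over background are therefore unknown, and the number of samples limits the precision. Versions of the authors' software: not given in the sources used here.

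The arrays gave 31099 probe sets. Without 57 array controls there were 31042, of which 20826 had 1 symbol in the platform annotation, 436 several and 9780 none. Genes were means of the probe sets with 1 symbol. The 14217 genes were fitted with limma 3.58.1 in R 4.3.3 (lmFit and eBayes, SNI minus control, no covariate, two-sided, Benjamini-Hochberg adjustment over all genes), which was tested on simulated data. Exact permutation with 3 samples a group gives no p below 0.1 and was not used. Plots used Python 3.11.15 and matplotlib 3.10.9.

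The members and gene lists were chosen with earlier results of these data known. Named are, per class, up to 10 members with the smallest unadjusted p under 0.05 and no overlap, carriers and ribosomal proteins well known in brain or disease, the highest and lowest difference, members whose probe sets differ in sign with 1 of them at an unadjusted p under 0.05, and list genes at an unadjusted p under 0.05. The other genes named were picked after their values were seen. Alternatives were repeated quantile normalization, aligned medians, the methods' t-test, a replicate block, other treatments of probe sets, robust variances, the hybridization controls as a covariate, a threshold of 0.01 and leaving out samples. The paper's miRNA arrays, behavior, qPCR and cell experiments were not used here.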

Additional observations from a re-analysis of the deposited data

Results flagged for a closer look

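A carrier outside the member rule had a probe set at an unadjusted p under 0.05. Slc25a51, the NAD carrier, is read by 2 probe sets whose annotation lists the symbol more than once. One of them stood at 0.074, 0.024 and 0.048 in the SNI samples, against −0.024, −0.16 and −0.27 in the control samples, a difference of 0.20 ± 0.075 without overlap (unadjusted p = 0.0279, limma adjusted p = 0.313). The other differed by −0.084 with an unadjusted p of 0.186, so the direction of this gene depends on the probe set.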

How the results depend on the processing

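No member passed an adjusted p of 0.05 under any alternative. The smallest values were 0.0788 for carriers, 0.0610 for the large and 0.0828 for the small subunit, each without control sample 2. Counts of members at an unadjusted p under 0.05 were 10, 13 and 6 for carriers, large and small subunit. They were 1, 5 and 2 with the hybridization controls as a covariate, which did not overlap between the groups. At a p under 0.01 they were 4, 5 and 1, beside 589 of all 14217 genes. Leaving out control samples 1 and 3 was an alternative chosen after seeing the data. Replicate numbers did not pair the samples (correlations of −0.022, −0.0074 and −0.045), and with the replicate block the counts were 9, 10 and 2. Over all genes, 499 were then higher and 1060 lower. Without control sample 2 these numbers were 1213 and 2072. Leaving out 1 sample gave 5 to 15 carriers, 8 to 14 large and 1 to 7 small subunit genes, and medians from −0.045 to −0.028 for carriers. The carrier median was −0.027 without probe sets of the suffixes _x, _s and _a, and the large subunit median −0.057 without control samples 1 and 3. Of carriers called, 3 were higher and 8 lower (72.7% lower) after repeated quantile normalization or aligned medians, beside 2 and 8 (80%). Sign changes were −0.029 for Slc25a28, −0.025 for Slc25a1 and −0.0089 for Mrps22 with the hybridization controls as a covariate, 0.079 for Mrpl50 and 0.0089 for Slc25a14 without control samples 1 and 3, and, for Slc25a27, 0.020 without suffixed probe sets and −0.12 to 0.0057 on leaving out 1 sample (0.0057 without control sample 1). The cause was not tested. Over the named members and all alternatives, 478 differences kept direction and side of the unadjusted threshold, 105 lost it and 9 gained it.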

Other observations

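Mrpl9, Mrpl11 and Mrpl24 are written in lower case in the annotation and so fell outside the member rule. They differed by −0.085, −0.095 and −0.088, with unadjusted p = 0.179, 0.153 and 0.244, and Mrpl9 and Mrpl11 had no overlap between the groups. With these 3 genes counted, the large subunit median was −0.088 and 13 genes were called, as without them.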
